A study of Mus musculus with 6 samples.

Results

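Amino acids that a cell can make for itself, and the phosphoenolpyruvate made in its mitochondria, depend on a small set of enzymes that share glutamate, glutamine, aspartate and oxaloacetate as substrates. This account covers 9 genes of that kind in mouse myoblasts: Asns, Pck2, Aldh18a1, Pycr1, Got1, Got2, Gpt2, Glul and Bcat1. Their members on the array were all probe sets that the platform annotation gives to exactly 1 of these genes. A probe set is a group of short array probes read as 1 signal. The rule found 23 probe sets of 8 genes, out of 45037 probe sets and 18193 genes in all. Pycr1 had no such probe set and was not analysed here.

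The cells were C2C12 myoblasts, an established mouse line that grows as muscle precursor cells, in which tetracycline induces integrin alpha7, a laminin receptor subunit. The cells of 3 arrays, labelled induced, were kept undifferentiated for 36 h with 1 µg/ml tetracycline. Those of the other 3, labelled noninduced, were kept for 36 h without it. All were grown in medium with 20% serum and 2 mM glutamine, and the question was how raised integrin alpha7 affects transcription. Only the cells labelled induced received tetracycline, so an effect of the drug and one of induction cannot be told apart. The labels do not say whether the line is 1 clone, and the control cells carried the construct as well. The series describes each group as 3 biological samples.

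Asparagine synthetase, Asns, moves an amide group from glutamine to aspartate. Aldh18a1 turns glutamate into the precursor that Pycr1 reduces to proline. Got1 and Got2 are the cytosolic and the mitochondrial aspartate aminotransferase, Gpt2 is the mitochondrial alanine aminotransferase and Bcat1 the cytosolic aminotransferase of branched-chain amino acids. Glul is glutamine synthetase, and Pck2 is the mitochondrial phosphoenolpyruvate carboxykinase, which makes phosphoenolpyruvate from oxaloacetate. Asns is a well-known target of ATF4, a transcription factor of the amino acid response that binds composite C/EBP-ATF elements near the start of its target genes.

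Promoter sequences are shown for 4 of the genes, Pck2 and Gpt2 because they had the largest differences of the set, Asns because its element is well studied, and Got1 as a gene with the same motif and a smaller difference. Each is the 250 bases before the gene's start in RefSeq (build GRCm38.p6), printed in the gene's direction, with any match to TGATGNAA or its reverse complement in capitals.
Asns (chr6:7693210-7693459, minus strand): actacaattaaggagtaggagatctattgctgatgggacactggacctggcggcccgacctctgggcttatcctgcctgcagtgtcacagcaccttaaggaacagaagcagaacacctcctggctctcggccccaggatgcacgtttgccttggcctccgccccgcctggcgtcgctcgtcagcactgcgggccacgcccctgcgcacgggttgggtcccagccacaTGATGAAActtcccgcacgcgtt
Pck2 (chr14:55540016-55540265, plus strand): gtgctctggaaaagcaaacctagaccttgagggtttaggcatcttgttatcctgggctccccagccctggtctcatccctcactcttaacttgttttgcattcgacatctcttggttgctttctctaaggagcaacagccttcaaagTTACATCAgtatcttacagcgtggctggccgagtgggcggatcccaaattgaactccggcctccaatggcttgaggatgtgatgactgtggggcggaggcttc
Got1 (chr19:43524606-43524855, minus strand): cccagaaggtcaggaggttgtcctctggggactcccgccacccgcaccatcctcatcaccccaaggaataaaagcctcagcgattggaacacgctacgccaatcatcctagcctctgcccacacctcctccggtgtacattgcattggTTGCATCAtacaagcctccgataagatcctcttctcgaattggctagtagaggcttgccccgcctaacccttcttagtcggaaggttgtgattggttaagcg
Gpt2 (chr8:85492326-85492575, plus strand): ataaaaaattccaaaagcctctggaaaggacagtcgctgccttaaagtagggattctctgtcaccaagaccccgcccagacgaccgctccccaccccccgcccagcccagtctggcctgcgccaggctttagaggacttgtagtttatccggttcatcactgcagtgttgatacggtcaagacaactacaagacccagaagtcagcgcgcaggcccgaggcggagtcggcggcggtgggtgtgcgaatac
RefSeq windows from 250 bases before to 50 bases after the start were matched for all 9 genes, 10 windows in all since Bcat1 has 2. TGATGNAA, searched on both strands, was found in the windows of 4 of the genes, against 3.97% of the 32851 windows of all genes. In Asns the match lay 23 to 16 bases before the start, on the gene's strand. In Pck2 it lay 103 to 96 bases before the start and in Got1 102 to 95 bases before it, both on the opposite strand. Pycr1, which has no probe set here, held it 103 to 96 bases before its start. The cAMP element TGACGTCA was in none of the 10 windows (1.79% of all windows), and the E-box CACGTG was in that of Aldh18a1 (7.15% of all windows). A match is a description of the letters and not of binding, and Gpt2 had none of the 3 motifs in its window.

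Some facts of the whole series touch every value below. The noninduced arrays were all scanned first, so the order of scanning and the groups cannot be told apart. By a gap in the recorded hybridisation times, induced replicates 2 and 3 were put in a second fluidics run. Itga7, the induced gene, was read by its brightest probe set, 1418393_a_at. It gave 693 ± 29.9 on arrays labelled induced and 792 ± 17.2 on noninduced arrays (SD, n = 3 each, limma adjusted p = 0.181). The groups lay apart, lower on arrays labelled induced, so this probe set was not higher where the labels say Itga7 was induced. Whether it reads the transcript of the construct was not tested. The groups are therefore named by their labels, on which every direction rests. The 3′ to 5′ ratio of the Gapdh probe sets was 0.761 to 0.782 on arrays labelled induced and 0.788 to 0.802 on noninduced arrays. That of the Actb probe sets lay the other way, at 1.117 to 1.143 on arrays labelled induced and 1.1 to 1.108 on noninduced arrays. Neither pair of ranges overlapped, and the part of these ratios in the results was not tested. All 7 myoblast markers were above the signal filter, with a summed signal of 6620 to 6906 on arrays labelled induced and 6850 to 6903 on noninduced arrays. The sum hides shifts both ways, though 0 of the 7 passed. Without overlap, Myod1 (log2 -0.17) and Chrna1 (-0.12) were lower on arrays labelled induced and Ncam1 (0.22) was higher. The groups of Myf5, Des, Cdh15 and Vcam1 overlapped. Of the markers of 6 other cell types and of myotubes none passed the test, and 2 of those tested were higher on arrays labelled induced without overlap. Pdgfra, the single one of 5 fibroblast markers above the filter, read 101, 75.1 and 65.4 on arrays labelled induced and 60.6, 37.3 and 50.1 on noninduced arrays (log2 0.56, limma adjusted p = 0.195), while the 5 summed to 89.1 to 132 on arrays labelled induced and 92.7 to 107 on noninduced arrays. Acta1, 1 of 2 myotube markers above the filter, was at 0.25 (adjusted p = 0.310), with a sum over 6 of 234 to 286 on arrays labelled induced and 218 to 286 on noninduced arrays. The part of these cells in the results was not tested. The 5 hepatocyte markers, all of them below the filter, summed to 16.6 to 49.6 on arrays labelled induced and 56.0 to 78.3 on noninduced arrays. Their single values ran from 0.394 to 23.6, near the floor, and this difference is not read as one of liver cells. For markers above the filter, fewer cells of a kind and less RNA per cell cannot be told apart in such bulk samples.

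Of the 23 probe sets, 21 had a mean signal above the filter, which was the median of all probe sets (23.4). Changes are given as differences of log2(signal + 16), arrays labelled induced minus noninduced arrays, tested with limma over all 22518 probe sets above the filter. Of the 21, 1 probe set, of Pck2, passed a Benjamini-Hochberg adjusted p of 0.05, against 0.2% of all tested probe sets, and 20 did not. At an adjusted p under 0.10 there were 4, all higher on the arrays labelled induced (0.595% of all tested probe sets), and they belonged to Pck2 and Gpt2. At an unadjusted p under 0.05 there were 10, against 14.7% of all tested probe sets. In 9 of the 21 all arrays labelled induced lay above all noninduced arrays (9.65% of all tested probe sets), and in 1, of Bcat1, all lay below (10.6%). Probe sets of a gene share its transcript, so these counts are not of independent measurements.

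**Figure D1:**
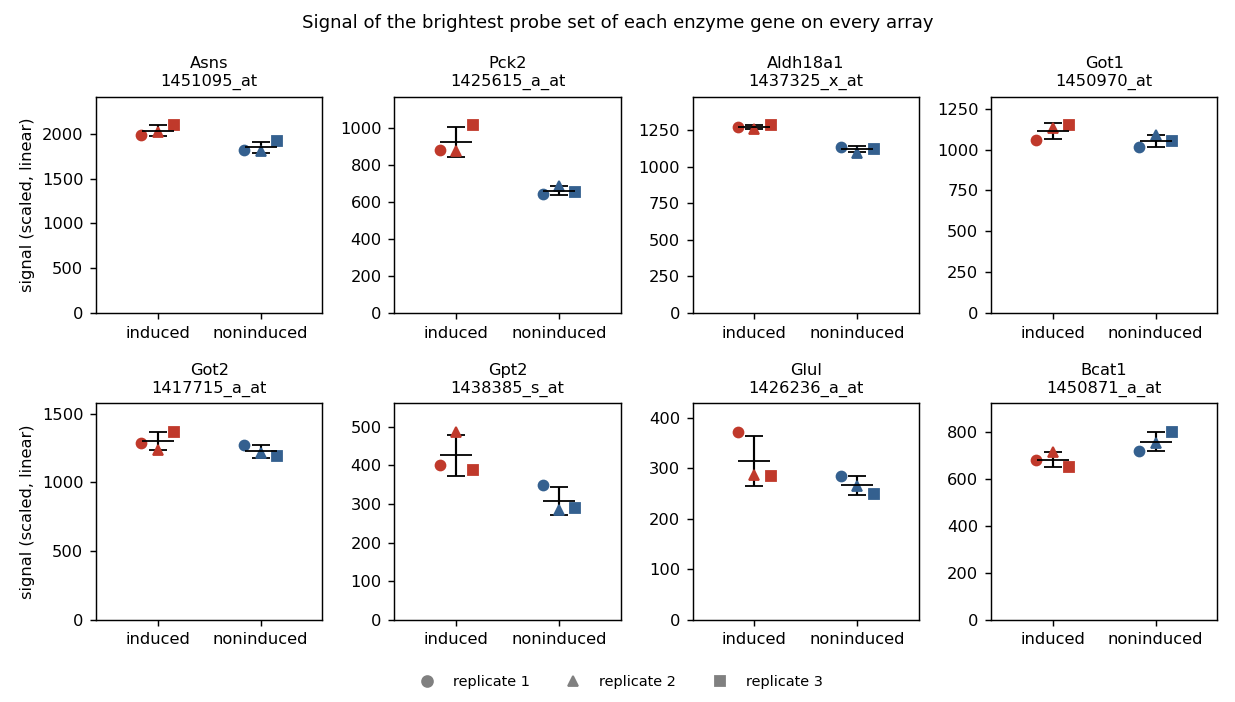
Signal (scaled, linear) of the brightest probe set of each of the 8 genes on every array, with arrays labelled induced in red on the left and noninduced arrays in blue on the right. Black bars give the mean and the SD of 3 arrays. The groups are apart, higher on the arrays labelled induced, for Asns, Pck2, Aldh18a1, Gpt2 and Glul (a pattern of 10.7% of all genes). For Bcat1 they are apart and lower (11.6%), and for Got1 and Got2 they overlap. For Glul the margin is narrow, 285.82 on induced replicate 3 against 285.37 on noninduced replicate 1.

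Mitochondrial phosphoenolpyruvate carboxykinase showed the clearest change. The brighter Pck2 probe set, 1425615_a_at, read 881, 878 and 1019 on arrays labelled induced and 645, 689 and 656 on noninduced arrays. The groups did not overlap, and the third array labelled induced stood above the other two. Its mean was 926 ± 80.8 against 663 ± 23.3 (SD, n = 3 each), a rise of 38.4% in signal + 16 (log2 0.47, SE 0.069, 95% interval 0.32 to 0.62, limma adjusted p = 0.0208). The dimmer Pck2 probe set, 1452620_at, read 112, 138 and 109.6 on arrays labelled induced and 90.1, 58.1 and 70.1 on noninduced arrays. These groups did not overlap either, and the log2 fold change was 0.62 (SE 0.15, limma adjusted p = 0.108), which did not pass.

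The value of 1425615_a_at lay between 0.40 and 0.56 in every alternative run, but the call was lost in 10 of 18. Leaving out any array other than induced replicate 3 gave a limma adjusted p of 0.0505 to 0.0927, and no filter gave 0.0634. A fit without a variance trend gave 0.293, and no probe set passed in it. Within the first fluidics run, where induced replicate 1 is the single array labelled induced, the change was 0.40. The spread there comes from the noninduced arrays alone. With fluidics run as a block the same arrays are compared, and the change was again 0.40. Both settings are among the 10, but they do not bear on the call. Pck1, the cytosolic form of the enzyme and a marker of liver, was below the signal filter and was not tested, with signals of 11.5, 7.37 and 0.874 on arrays labelled induced and 13.5, 23.6 and 18.2 on noninduced arrays.

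Of the aminotransferases, Gpt2 had the largest difference. Its probe set 1455007_s_at read 345, 363 and 339 on arrays labelled induced and 256, 267 and 216 on noninduced arrays. The lowest array labelled induced was well above the highest noninduced one. This is a log2 fold change of 0.48 (SE 0.088, 95% interval 0.29 to 0.67), and the limma adjusted p of 0.0553 just missed the threshold. It passed with a filter at the 75th percentile (0.0384), with robust moderation (0.0469), with array weights (0.0405) and after median centring (0.0181). It did not pass in the other 14 of 18 alternatives, among them no filter (0.149) and each array left out (0.0726 to 0.176). Another was no variance trend (0.293), where no probe set passed. Fluidics run as a block and the first run alone, with a change of 0.46 in both, are also among the 14. Both compare induced replicate 1 alone with the noninduced arrays, so they do not bear on the call.

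The other Gpt2 probe sets did not all give the same value. The brightest, 1438385_s_at, read 402, 488 and 388 on arrays labelled induced and 349.6, 284 and 291 on noninduced arrays, a log2 fold change of 0.45 (SE 0.10, adjusted p = 0.0971). Probe set 1434542_at read 179.8, 198 and 174 on arrays labelled induced and 131, 104 and 135 on noninduced arrays, a log2 fold change of 0.52 (SE 0.11, adjusted p = 0.0812). Both were without overlap, with induced replicate 2 the highest array. The fourth, 1439029_at, read 232, 274 and 282 on arrays labelled induced and 219.7, 304 and 256 on noninduced arrays. Its groups overlapped fully, and its log2 fold change was 0.02 (95% interval -0.23 to 0.27) with a sign that turned in 5 of 18 alternatives. Whether it differed from the other Gpt2 probe sets was not tested. Gpt, the cytosolic alanine aminotransferase, was at -0.10 (adjusted p = 0.719).

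**Figure D2:**
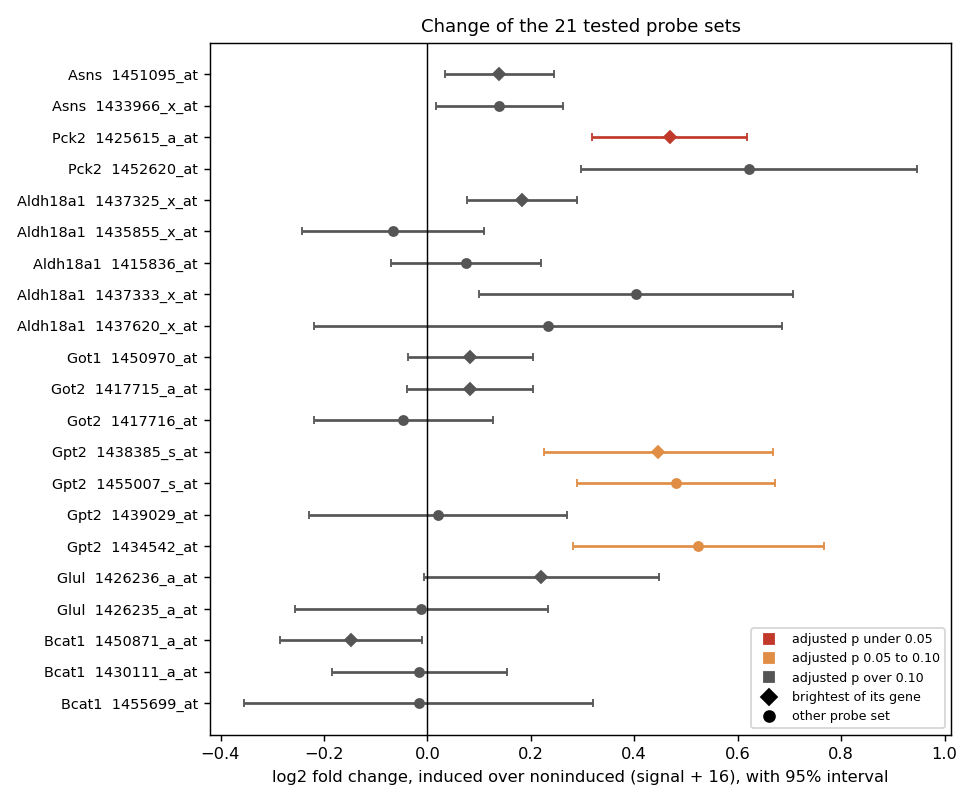
Log2 fold change of signal + 16 for the 21 tested probe sets, arrays labelled induced over noninduced arrays, with 95% intervals from limma. Diamonds mark the brightest probe set of each gene, and colour gives the adjusted p. Pck2 1425615_a_at (0.47) is the single probe set under 0.05, and 3 Gpt2 probe sets lie between 0.45 and 0.52 with an adjusted p of 0.0553 to 0.0971.

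The aspartate aminotransferases had small differences, none of which passed the test. Got1, with 1 probe set, read 1061.5, 1132 and 1151 on arrays labelled induced and 1016, 1087 and 1052 on noninduced arrays. The groups overlapped, and the log2 fold change was 0.08 (95% interval -0.04 to 0.20, limma adjusted p = 0.517). It was 0.01 with fluidics run as a block and 0.18 after median centring. In percent, the interval runs from -2.61% to 15.2%. The bright Got2 probe set, 1417715_a_at, read 1288, 1237 and 1368 on arrays labelled induced and 1273, 1210.3 and 1188 on noninduced arrays, also 0.08 (95% interval -0.04 to 0.20, adjusted p = 0.5205). That value was 0.04 without induced replicate 3, its highest array, and 0.18 after median centring. A second Got2 probe set, 1417716_at, was at -0.05 and had the opposite sign after median centring (0.05). The remaining Got2 probe sets, 1430397_at and 1447768_at, were below the filter, at 0.480 to 13.1 on arrays labelled induced and 1.31 to 16.7 on noninduced arrays.

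Bcat1 was the single gene of the set whose brightest probe set had a negative log2 fold change. That probe set, 1450871_a_at, read 682, 714 and 653 on arrays labelled induced and 722, 753 and 802 on noninduced arrays. The groups lay apart by a small margin, with a log2 fold change of -0.15 (SE 0.063, 95% interval -0.29 to -0.01, limma adjusted p = 0.310). After median centring it was -0.05. The other Bcat1 probe sets, 1430111_a_at and 1455699_at, were both at -0.02 and both turned positive after median centring (0.08 each). Bcat2, the mitochondrial form, was at 0.09 with an adjusted p of 0.677.

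Asparagine synthetase had a small difference that was alike in both of its probe sets and did not pass the test. Probe set 1451095_at read 1989, 2020.2 and 2101 on arrays labelled induced and 1815, 1809 and 1922 on noninduced arrays. All arrays labelled induced were above all noninduced ones, by a margin smaller than the range within either group. The mean was 2037 ± 57.7 against 1849 ± 63.6 (SD, n = 3 each), a log2 fold change of 0.14 (SE 0.048, 95% interval 0.03 to 0.24, limma adjusted p = 0.223). The second probe set, 1433966_x_at, read 1553, 1606.5 and 1653 on arrays labelled induced and 1513, 1356 and 1502 on noninduced arrays. It gave the same log2 fold change of 0.14 (SE 0.056, adjusted p = 0.284), without overlap. Both kept their sign in all 18 alternatives, over a range of 0.09 to 0.23, and neither passed in any. As their groups did not overlap, only quantile normalization and median centring could have turned that sign. In percent of signal + 16 the upper bounds of the Asns intervals were 18.4% and 19.9%. The lower bound of Pck2 1425615_a_at was 24.7%, and the difference between the genes was not tested.

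Of the proline pathway, Aldh18a1 was measured by 5 probe sets, which spread widely. The brightest, 1437325_x_at, read 1269, 1258 and 1284 on arrays labelled induced and 1135, 1094 and 1122 on noninduced arrays. The arrays of each group lay close together and the groups were well apart. This probe set gave a log2 fold change of 0.18 (SE 0.049, 95% interval 0.08 to 0.29, limma adjusted p = 0.136). Probe set 1437333_x_at gave 0.40 (adjusted p = 0.221), and its groups overlapped, with 194 on induced replicate 3 and 197 on noninduced replicate 3. Probe set 1415836_at gave 0.07 and 1435855_x_at gave -0.07, which was 0.03 after median centring. The dimmest, 1437620_x_at, was at 0.23. It read 100.5, 50.02 and 57.1 on arrays labelled induced and 54.2, 64.96 and 44.97 on noninduced arrays, so that induced replicate 1 stood apart, and its log2 fold change without that array was -0.02. The suffix _x_at marks probe sets whose probes can match other transcripts, and 4 of the 5 carry it; 1415836_at does not.

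Glutamine synthetase gave no consistent difference between its probe sets. Glul 1426236_a_at read 373, 287 and 286 on arrays labelled induced and 285, 265 and 249 on noninduced arrays. The groups were apart by a narrow margin only, 285.82 on induced replicate 3 against 285.37 on noninduced replicate 1. Induced replicate 1 alone stood well above the rest. This gave a log2 fold change of 0.22 (SE 0.10, 95% interval -0.01 to 0.45, limma adjusted p = 0.357), and without that array it was 0.10. The second probe set, 1426235_a_at, was at -0.01 (95% interval -0.26 to 0.23), and was 0.08 after median centring.

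**Figure D3:**
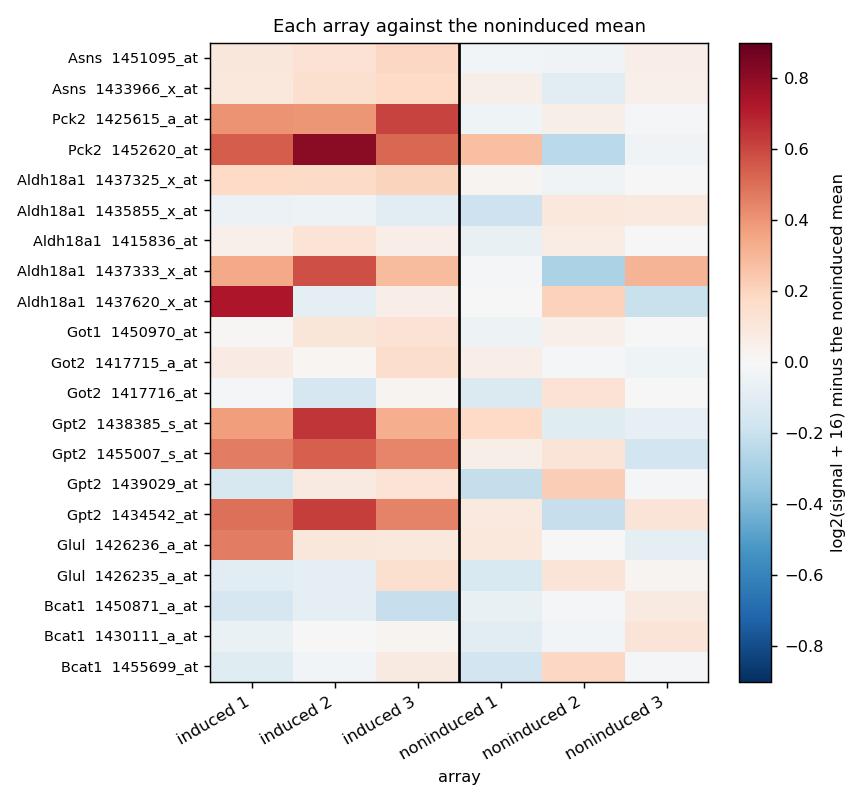
Log2(signal + 16) of the 21 tested probe sets on each array (columns, arrays labelled induced on the left) minus the mean of the 3 noninduced arrays. Red is higher and blue lower. Both Pck2 probe sets and 3 of the 4 Gpt2 probe sets are red on all 3 arrays labelled induced, while Glul 1426236_a_at and Aldh18a1 1437620_x_at stand out on induced replicate 1.

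Over the brightest probe set of each gene, 7 of 8 were positive (47.8% of all genes) and 1 was negative, with a median log2 fold change of 0.16. The median over the brightest probe sets of all 10775 genes above the filter was -0.01. By array, the median of the 8 genes against the noninduced mean was 0.14, 0.12 and 0.17 on arrays labelled induced 1, 2 and 3 and -0.00136, -0.0126 and -0.00746 on noninduced arrays 1, 2 and 3. The noninduced arrays are their own reference here, so their values lie near 0 by construction. Of the 8, 5 had their highest signal on induced replicate 3 (Asns, Pck2, Aldh18a1, Got1 and Got2), Gpt2 on induced replicate 2, Glul on induced replicate 1 and Bcat1 on noninduced replicate 3. In the first fluidics run, induced replicate 1 against the noninduced arrays gave 0.46 for Glul, 0.40 for Pck2, 0.37 for Gpt2, 0.18 for Aldh18a1, 0.11 for Asns, 0.07 for Got2, 0.01 for Got1 and -0.15 for Bcat1. Glul was thus further from 0 and Got1 nearer to it than over all arrays. Centring each array on its median raised the median of all tested probe sets to 0.08 and that of the 8 genes to 0.25. With that scaling 5 member probe sets passed, both of Pck2 and 3 of Gpt2, against 1.36% of all tested probe sets. Calls over all probe sets then leaned to 1 side, with 294 higher and 12 lower, against 27 and 18 without the scaling.

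Other genes of the same pathways did not pass the test. Of 41 listed, 37 had a probe set of their own and 30 were above the filter; 0 rose and 0 fell at an adjusted p of 0.05 in limma, against 0.306% of all genes, and 4 had an unadjusted p under 0.05 (16% of all genes). Of the 30, 18 were positive and 12 negative, with a median of 0.05. In 4 the arrays labelled induced lay above the noninduced arrays (10.7% of all genes) and in 0 below (11.6%). Nars, which charges the asparagine tRNA, read 3093, 2868 and 2885 on arrays labelled induced and 2612, 2540.1 and 2718 on noninduced arrays (log2 0.17, adjusted p = 0.157), and was the single one to pass after median centring. Glud1, glutamate dehydrogenase, was at 0.13, and Me2, the mitochondrial malic enzyme, at 0.14, both without overlap.

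The groups of the neighbours named next overlapped, which does not show that they did not differ. Mdh1, cytosolic malate dehydrogenase and a partner of Got1 in the malate-aspartate shuttle, was at 0.40, but read 2305, 2411 and 1633.5 on arrays labelled induced and 2059.5, 1249 and 1535 on noninduced arrays (SE 0.16, limma adjusted p = 0.292). Of its arrays labelled induced, only replicate 3 lay below the highest noninduced array, and the 95% interval was 0.04 to 0.75. The mitochondrial carrier Slc25a13 of that shuttle was at -0.07. In proline and ornithine metabolism, Oat, ornithine aminotransferase, was at 0.14 (95% interval -0.00365 to 0.29), and Aldh4a1, an enzyme of proline breakdown, at -0.15. Among branched-chain genes the dehydrogenase subunit Bckdha was at 0.14 and the kinase Bckdk at -0.09. Mpc1, of the mitochondrial pyruvate carrier, was at 0.10, Asrgl1 at 0.12, Odc1, the first enzyme of polyamine synthesis, at 0.09 and Asl, argininosuccinate lyase, at 0.07.

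**Figure D4:**
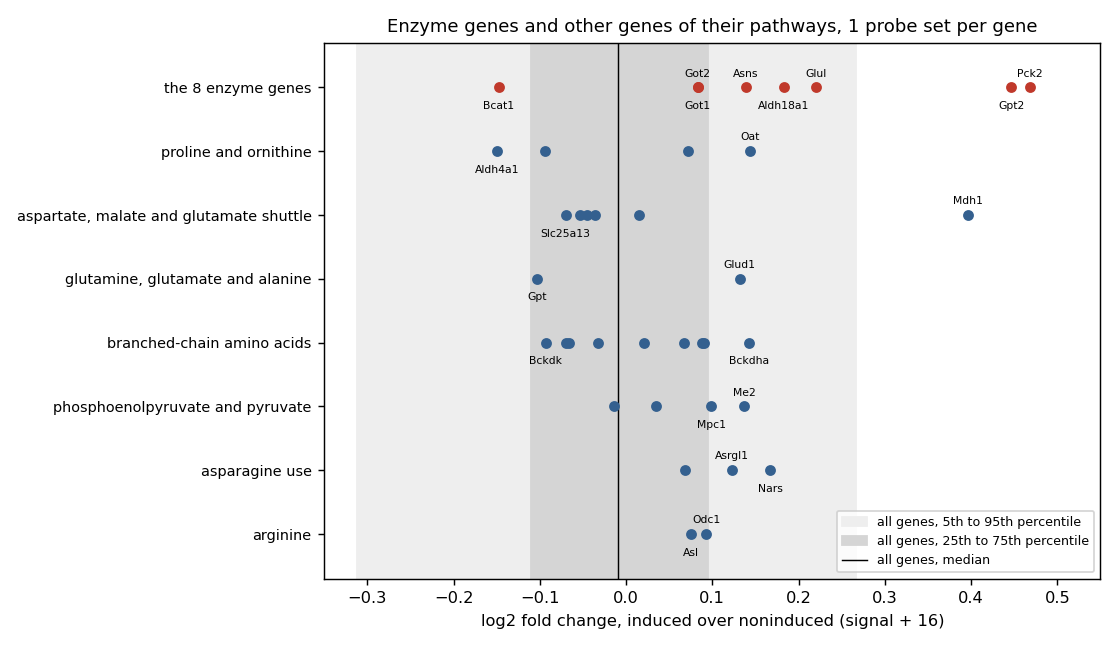
Log2 fold change (signal + 16, arrays labelled induced over noninduced arrays) of the brightest probe set of the 8 enzyme genes (red) and of the 30 tested genes of the same pathways (blue, by list, with 2 names each). Grey bands hold the middle of all 10775 genes, from -0.11 to 0.10 (25th to 75th percentile) and from -0.31 to 0.27 (5th to 95th). Pck2, Gpt2 and Mdh1 lie beyond the outer band.

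Among the regulators looked at beside these genes, Ddit3, the stress factor CHOP, was the single one tested to rise past the test, with 387, 360.04 and 398 on arrays labelled induced against 233, 268 and 256 on noninduced arrays (log2 0.57, limma adjusted p = 0.0151). Trib3, a pseudokinase that can bind ATF4, was at 0.70 with its brightest probe set (adjusted p = 0.0553). Atf4 read 3457, 3641 and 3655 on arrays labelled induced and 3228, 3320.5 and 3524 on noninduced arrays, with overlap (log2 0.09, adjusted p = 0.383). Atf5, an ATF4-related factor, was at 0.18 and Cebpb, which encodes a C/EBP factor, at 0.27, and neither passed. Nfe2l2, the antioxidant factor NRF2, was at 0.17, Myc at 0.07 and Esrra at 0.05. Atf3 was at -0.07, and Ppargc1a was below the filter and was not tested.

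The genes whose profile over the 6 arrays lay closest to that of Pck2 were Aldh1l2, Anxa4 and Ero1a, with a root mean square difference of 0.064, 0.065 and 0.068 (log2, each profile centred on its own mean). They were picked for likeness among 10774 genes, so their changes of 0.38, 0.40 and 0.44 are descriptions. Aldh1l2 is a mitochondrial folate enzyme, Anxa4 an annexin and Ero1a an oxidase of the endoplasmic reticulum. Closest to Asns were Stambp, Ccdc58 and Dnm1l (0.016, 0.017 and 0.018), and closest to Aldh18a1 were Steap2, Atp6ap2 and Eny2 (0.013, 0.016 and 0.017).

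**Figure D5:**
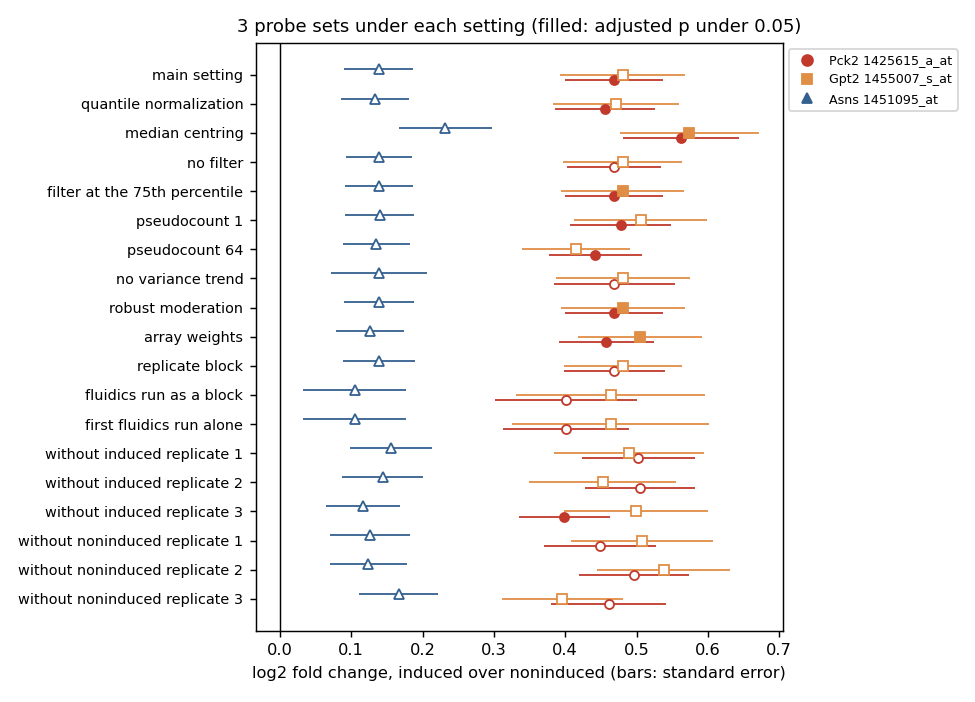
Log2 fold change of 3 probe sets (Pck2 1425615_a_at, Gpt2 1455007_s_at and Asns 1451095_at), arrays labelled induced over noninduced arrays, under each setting, with standard errors. Filled symbols have an adjusted p under 0.05. The Pck2 value stays between 0.40 and 0.56 while its call comes and goes, and Asns stays between 0.11 and 0.23 with no call.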

How the data were processed

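Total RNA of 6 cultures of integrin alpha7 C2C12 cells (3 labelled induced, 3 noninduced) was labelled with biotin and put on 1 Affymetrix Mouse430_2 array each, per the labels' protocols and the file headers. The authors deposited 1 linear intensity for each probe set and array, from GCOS 1.1.1 software according to the submitters' processing notes; its settings are not stated in the sources. All arrays had a trimmed mean (2% off both ends) of 150.001, so a value is relative to its array. Precision is limited by the number of arrays. The deposited instrument records (unit other) gave the times of hybridisation and of scanning, and the latter gave the scan order. Fluidics run was not read from the records. Arrays separated by a long gap in hybridisation time were put in different runs.

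After removal of 64 control probe sets, values were taken to log2(value + 16), which understates the change of a dim probe set. Those with a mean above 23.4 were tested with limma 3.58.1 in R 4.3.3 (moderated by eBayes with a trend in the variance, and Benjamini-Hochberg adjustment over 22518). Genes were named from the platform annotation (34945 probe sets with 1 gene, 932 with several, 9160 not listed); the brightest probe set stood for a gene. The genes named are the 9 members, of each neighbour list the 2 with the largest change, Bcat2 and Pck1 as paralogs chosen after their values were seen, a set of regulators, and the 3 most similar profiles of Asns, Aldh18a1 and Pck2. The members and lists were chosen with earlier results of these data known. The steps were tested on simulated data. No pair of arrays was identical. Alternatives were quantile normalization, median centring, other filters and pseudocounts, no variance trend, robust moderation, array weights, replicate number or fluidics run as a block, the first run alone, each array left out, a threshold of 0.10 and averaging of a gene's probe sets.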

Additional observations from a re-analysis of the deposited data

How the results depend on the processing

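The count of 1 member probe set past the threshold (45 of all tested probe sets) was 1 with quantile normalization and with pseudocounts of 1 and 64. It was 5 (306) after median centring, 2 (74) with robust moderation, 2 (86) with array weights and 4 (219) at a threshold of 0.10. With the filter at the 75th percentile it was 2 (102), over 11259 tested probe sets. With no filter it was 0 (1), over 45037, while the other settings tested 22518. Without a variance trend it was 0 (0), where 7 member probe sets and 2817 in all had an unadjusted p under 0.05 in limma. With the replicate block it was 0 (5), where 10 member probe sets and 3021 in all had an unadjusted p under 0.05 in limma. Pck2 1425615_a_at was at 0.47 there, with a limma adjusted p of 0.0711. The labels give these numbers no shared origin: deviations from the group means of same-numbered arrays correlated at 0.012, -0.063 and -0.0088, and not every array correlated best with its own number. With fluidics run as a block, and in the first run alone, the comparison rests on induced replicate 1 as the single array labelled induced, so no count is read from them. Leaving out 1 array gave 0 to 1 (0 to 50): the count over all probe sets was 0 when induced replicate 1 was left out, 11 for induced replicate 2, 1 for noninduced replicate 2 and 8 for noninduced replicate 3. The count of neighbours past the threshold was 1 after median centring and 0 in all other settings run. The median of the member genes, 0.16, was 0.25 after median centring, 0.12 when a gene's probe sets were averaged, and 0.14 to 0.17 without 1 array. Among these settings, only quantile normalization and median centring can turn the sign of a probe set whose groups do not overlap. None of the 10 member probe sets without overlap between groups changed sign. Others did: after median centring Aldh18a1 1435855_x_at was at 0.027, Got2 1417716_at at 0.047, Glul 1426235_a_at at 0.081, Bcat1 1430111_a_at at 0.078 and Bcat1 1455699_at at 0.076. The last was at 0.023 after quantile normalization. Gpt2 1439029_at was at -0.14 with fluidics run as a block, and in the first run alone. Without 1 array, Aldh18a1 1437620_x_at ranged from -0.015 to 0.394, Got2 1417716_at from -0.112 to 0.020, Gpt2 1439029_at from -0.088 to 0.132, Glul 1426235_a_at from -0.092 to 0.045, Bcat1 1430111_a_at from -0.063 to 0.044 and Bcat1 1455699_at from -0.102 to 0.077. With all arrays these 7 lay between -0.067 and 0.020, save Aldh18a1 1437620_x_at at 0.23. Median centring shifts each array as a whole, so it raised the log2 fold change of every probe set by the same amount. The sign changes after it are thus 1 common shift and not separate changes of these genes. Before centring, the array medians were 22.89 to 24.9 on arrays labelled induced and 24.99 to 27.73 on noninduced arrays. The cause of the changes in the other settings, and of the lower medians, was not tested. On simulated data of this size (3 arrays a group, 22518 probe sets, 200 changed), the fit recovered 60% of those changed by 1.5-fold and 89.8% of those changed by 2-fold, with fewer (22.6%) at the smallest size simulated.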
